A study of Mus musculus with 4 samples.

Results

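Liver iron genes were compared between SREBP1c knockout (KO) mice and wild-type (WT) mice. The genes were the 10 iron genes listed for this account, Hamp, Hamp2, Hfe, Hfe2, Tfr2, Tfrc, Trf, Slc40a1, Fth1 and Ftl1, out of 23920 genes in the deposited table, and they were found by their gene symbol and summed over the rows of each gene number. They took 13 of the 33170 transcript rows. There were 2 KO and 2 WT liver libraries. The labels describe male C57BL/6 mice, 12 weeks of age, sampled after a 24 h fast and 12 h of renewed feeding. SREBP1c is the insulin-responsive transcription factor of fatty acid synthesis in the liver and is encoded by Srebf1. The labels name the KO genotype but not the allele or its extent, and they do not say whether the libraries are separate animals. The spread that the p-values rest on is that between these libraries and may be technical.

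Values are FPKM, fragments scaled to transcript length and library size. Levels of different genes can be set side by side only roughly, since how FPKM was computed is not stated. The steps between low values implied roughly 20.6 M (mega) to 22.9 M fragments per library, an approximate depth, with 47.8% to 50.3% of them within 0.1 of a whole fragment. Srebf1 had 8.63 and 6.97 FPKM in the KO libraries, against 63.7 and 58.2 FPKM in the WT libraries (limma adjusted p = 0.00172, but 0.104 with no filter on low values and 0.114 or 0.0898 with WT replicate 1 or 2 left out). Its single row does not separate SREBP1c from SREBP1a. Of 7 hepatocyte markers 6 reached a mean of 1 FPKM, while Alb was listed at 0 in every library. Their summed levels were 19732 and 19593 FPKM in KO and 19807 and 22187 FPKM in WT. Of the 7, 1 was higher and 3 were lower in KO without overlap, against 22.4% and 16.4% of all genes tested.

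Hepcidin, the product of Hamp, is a hormone that hepatocytes release when iron is plentiful or when inflammation sets in. It binds ferroportin, the iron exporter encoded by Slc40a1, blocks it and causes its breakdown, so that iron stays in macrophages and gut cells. Hepatocytes sense iron through HFE, transferrin receptor 2 (Tfr2) and hemojuvelin (Hfe2, now named Hjv), which feed into BMP and SMAD signalling on Hamp, while interleukin-6 acts on Hamp through STAT3. Inside cells, iron regulatory proteins bind iron-responsive elements in mRNAs, blocking translation of ferritin and ferroportin and protecting the mRNA of the transferrin receptor (Tfrc) when iron is scarce.

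Hamp and its mouse paralog Hamp2 lie on chromosome 7, at 30942368 to 30944029 and at 30922372 to 30924181, with 18186 bases between them. Over the 250 bases upstream of their starts 89.7% of aligned positions were identical, and the windows are shown as a description of sequence only. The differences of these genes between KO and WT had opposite signs, but neither passed (limma adjusted p = 0.701 for Hamp and 0.165 for Hamp2). The groups overlapped for Hamp, and the part of these windows in the differences was not tested. They come from RefSeq on GRCm38.p6, on the minus strand, at chr7:30944030-30944279 for Hamp and chr7:30924182-30924431 for Hamp2, and run 5′ to 3′ toward the gene. Capitals mark the core of the BMP-responsive element (GGCGCC) and the STAT palindrome (TTCNNNGAA), both searched on either strand.
Hamp: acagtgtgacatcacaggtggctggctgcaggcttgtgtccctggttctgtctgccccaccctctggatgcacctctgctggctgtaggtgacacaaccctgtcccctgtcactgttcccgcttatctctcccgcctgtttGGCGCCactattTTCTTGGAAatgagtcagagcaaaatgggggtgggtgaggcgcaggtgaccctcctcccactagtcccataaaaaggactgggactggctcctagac
Hamp2: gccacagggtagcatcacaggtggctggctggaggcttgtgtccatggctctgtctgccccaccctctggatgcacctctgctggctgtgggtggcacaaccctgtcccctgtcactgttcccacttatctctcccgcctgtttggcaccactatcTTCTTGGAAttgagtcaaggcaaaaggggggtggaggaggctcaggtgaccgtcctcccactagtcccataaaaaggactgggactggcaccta

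The Hamp window held GGCGCC at 109 to 104 bases upstream of the start and the STAT palindrome at 97 to 89 bases upstream. The Hamp2 window held the palindrome, at 94 to 86 bases upstream, and no GGCGCC. The 20 bases around the element in Hamp had their best ungapped match in Hamp2 at 18 of 20 bases, shown here with the 6 positions of the element in capitals.
Hamp: cctgtttGGCGCCactattt
Hamp2: cctgtttGGCACCactatct

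Of all 32851 windows of the RefSeq promoters, 9.59% held GGCGCC and 7.02% held the palindrome. There were 11 windows for 7 of the iron genes, leaving out Hfe2, Trf and Slc40a1. Besides Hamp, GGCGCC was found upstream of Tfrc, and the palindrome was found in no window other than those of Hamp and Hamp2. The E-box CACGTG, a sequence that SREBP1 and other factors can bind, was in 0 of the 11 windows and in 6.02% of all windows. A match of letters is not a bound site, and no binding was measured.

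The transcripts hold the other regulatory sequence of this system. A hairpin with a C bulge, 5 paired bases and the loop CAGTGN was searched in the UTRs of 1 coding transcript per gene (GENCODE M21, GRCm38), and it was found in the 5′ UTR of 0.104% of genes and in the 3′ UTR of 0.561%. Ftl1, Fth1 and Slc40a1 held 1 each in the 5′ UTR, and Tfrc held 4 in the 3′ UTR. They are shown with the loop in capitals, at chr7:45459779-45459807 (minus strand) for Ftl1, chr19:9982732-9982760 (plus) for Fth1, chr1:45925465-45925493 (minus) for Slc40a1, and chr16:32631219-32631247 and chr16:32631710-32631738 (plus) for the first and last of Tfrc.
Ftl1: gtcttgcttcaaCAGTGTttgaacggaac
Fth1: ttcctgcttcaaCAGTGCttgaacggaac
Slc40a1: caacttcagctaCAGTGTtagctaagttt
Tfrc, first: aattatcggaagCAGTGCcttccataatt
Tfrc, last: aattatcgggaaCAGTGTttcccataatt

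CAGTGN alone, within the first 50 transcribed bases, was in 1 of the 11 windows of iron genes, a Tfr2 window, and in 7.08% of all windows. Elements of the 5′ UTR act on translation, which FPKM does not measure.

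The minimum for testing, a mean of 1 FPKM, was met by 9 of the 10 iron genes and by 9820 genes in all. By mean level, a rough comparison between genes, the order was Trf, Ftl1, Hamp, Tfr2, Hfe2, Hfe, Slc40a1, Tfrc and Hamp2. Between neighbours in this order the ranges over the 4 libraries overlapped for Trf with Ftl1 and for Tfrc with Hamp2, and for no other pair of neighbours. Hfe (lowest library 24.9 FPKM) and Slc40a1 (highest library 24.5 FPKM) came close. On GRCm38.p6 the RefSeq genes lie on chromosome 9 at 103208876 to 103230286 (Trf), 5 at 137569822 to 137588081 (Tfr2), 3 at 96525163 to 96529216 (Hfe2), 13 at 23702034 to 23710854 (Hfe), 1 at 45908070 to 45926532 (Slc40a1), 16 at 32608896 to 32632794 (Tfrc), 7 at 45457944 to 45459886 (Ftl1) and 19 at 9980600 to 9985111 (Fth1).

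**Figure D1:**
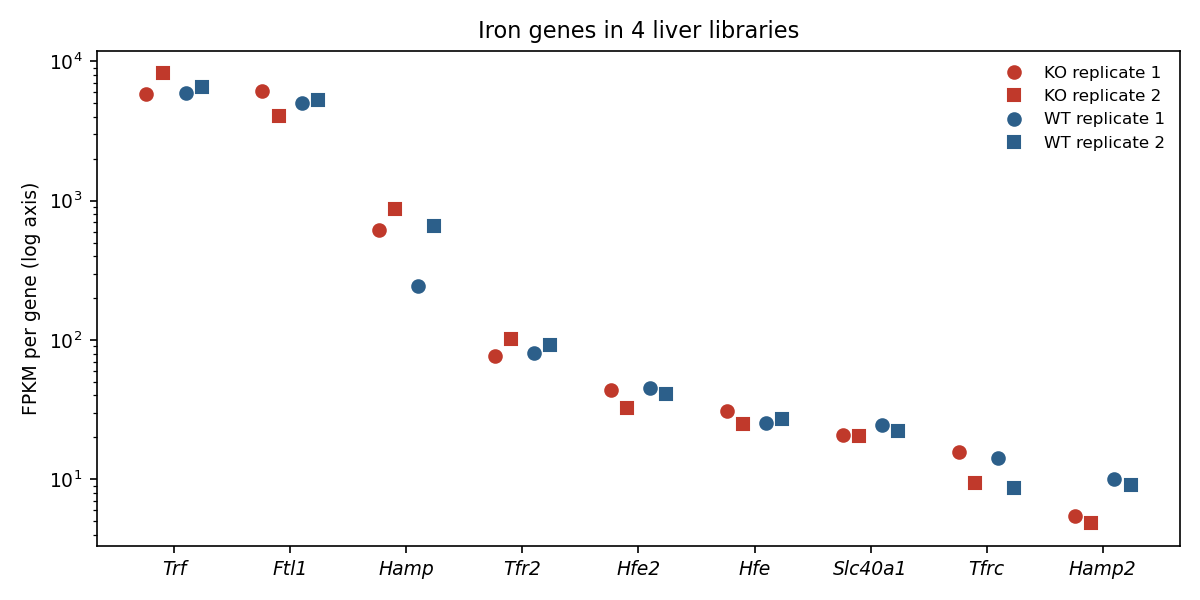
FPKM of each measured iron gene (log axis) in the 2 KO libraries (red) and the 2 WT libraries (blue), with circles for replicate 1 and squares for replicate 2 and genes ordered by mean level. Hamp2 shows both KO libraries (5.49 and 4.85 FPKM) under both WT libraries (10.1 and 9.12 FPKM), and Hamp shows WT replicate 1 (243 FPKM) apart from the rest.

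The first question was whether hepcidin itself differed. Hamp (NM_032541) had 614 and 867 FPKM in the KO libraries, against 243 and 658 FPKM in the WT libraries. The groups overlapped, since WT replicate 2 lay above KO replicate 1, and WT replicate 1 was the low library. The means were 741 ± 179 FPKM in KO and 451 ± 293 FPKM in WT (SD, n = 2 each), a ratio of 1.64. The log2 difference (KO minus WT, of FPKM + 1) was 0.86 with a standard error of 0.46 (95% interval −0.26 to 1.98), and it did not pass (limma adjusted p = 0.701 over 9820 genes). Leaving out WT replicate 1 gave 0.15, and leaving out WT replicate 2 gave 1.58.

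Hamp2 (NM_183257), which in mice has not been found to control iron the way Hamp does, was the iron gene with the smallest p. It had 5.49 and 4.85 FPKM in the KO libraries and 10.1 and 9.12 FPKM in the WT libraries. Both KO libraries lay below both WT libraries, and the difference between the groups was several times the spread within either. The means were 5.17 ± 0.458 FPKM in KO and 9.59 ± 0.661 FPKM in WT (SD, n = 2 each), a WT mean 1.85 times that of KO. The log2 difference of −0.78 (SE 0.11) had an unadjusted limma p of 0.000510, rank 30 of 9820 genes, and did not pass after adjustment (adjusted p = 0.165). With any library left out the log2 difference was between −0.86 and −0.70. Over the alternatives that kept all 4 libraries the limma adjusted p of Hamp2 ran from 0.0833 to 0.470.

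At these levels the implied number of Hamp2 fragments was small, about 53 and 42 in the KO libraries and 97 and 80 in the WT libraries, against 5765 and 7308 for Hamp in KO and 2279 and 5614 in WT. The Hamp and Hamp2 transcripts are 92.4% identical, and 60 of 361 stretches of 50 bases in Hamp occur whole in Hamp2. How fragments of both origins were shared between the genes is not given in the sources used here, so the Hamp2 level is uncertain. The library with the highest Hamp, KO replicate 2, had the lowest Hamp2, and the library with the lowest Hamp, WT replicate 1, had the highest Hamp2.

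The ratio of Hamp to Hamp2 in a library was 112 and 179 in KO, against 24.2 and 72.2 in WT. Both KO ratios lay above both WT ratios, a log2 difference of 1.76. Hamp2, by which the ratio divides, already separated the groups, and 22.4% of all genes tested were higher in KO without overlap. An exact two-sided permutation test gave p = 0.333. That is the smallest that 2 libraries against 2 can give, so the test could not pass and decides nothing here.

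**Figure D2:**
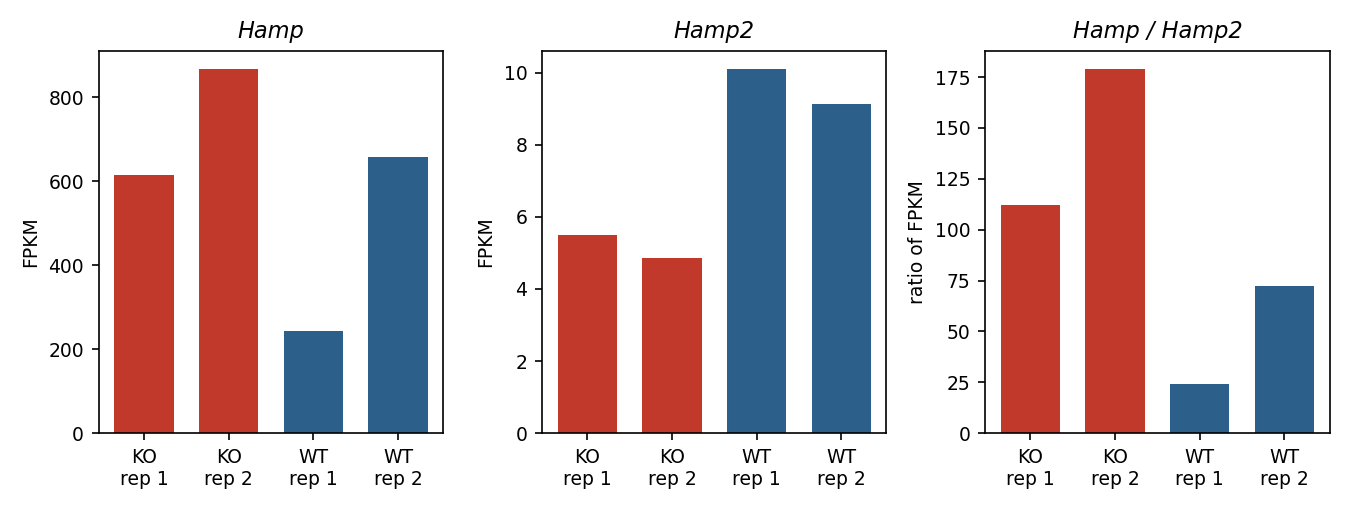
Bars give the FPKM of Hamp and Hamp2 and the ratio of the 2 values in each library (KO red, WT blue). The ratio is 112 and 179 in KO libraries and 24.2 and 72.2 in WT libraries, with Hamp overlapping between the groups and Hamp2 not.

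None of the iron sensors of the hepatocyte passed the test. Tfr2, which senses iron-loaded transferrin, had 76.7 and 101 FPKM in KO and 80.3 and 91.7 FPKM in WT. The WT libraries lay between the KO libraries (log2 difference 0.04, 95% interval −0.36 to 0.43, limma adjusted p = 0.974). Its row NM_015799 took 67.9% and 70.5% of the gene in KO and 70.5% and 70.7% in WT. The row NM_001289509, described as isoform b, took 23.4% and 20.8% in KO and 22.0% and 24.1% in WT. The ranges of both shares overlapped between the groups, as did those of NM_001289507 (6.70% and 5.17% in KO, 6.24% and 5.21% in WT). The share of NM_001289511, a further row described as isoform b, was 1.96% and 3.57% in KO and 1.27% and 0.000370% in WT. That row did not overlap but was low, at 1.51 and 3.60 FPKM in KO and 1.02 and 0.000339 FPKM in WT.

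Hfe, the MHC class I-like protein mutated in the common form of human hemochromatosis, had 30.7 and 24.9 FPKM in KO and 25.5 and 26.9 FPKM in WT (log2 difference 0.08, 95% interval −0.25 to 0.40, limma adjusted p = 0.917). Here too the WT libraries lay inside the KO range. Hfe2, the BMP co-receptor hemojuvelin, had 43.8 and 32.7 FPKM in KO and 45.6 and 41.2 FPKM in WT. KO replicate 2 was its low library, and the groups overlapped (log2 difference −0.19, 95% interval −0.58 to 0.20, limma adjusted p = 0.814).

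The genes of iron uptake and carriage overlapped between the groups. Tfrc, the receptor by which most cells take up transferrin iron, had 15.8 and 9.36 FPKM in KO, against 14.3 and 8.64 FPKM in WT. In each group replicate 1 was the high library and replicate 2 the low one, and the difference within a group was larger than that between groups. The implied depth was also higher in the replicate 1 libraries (22.9 M and 22.9 M) than in the replicate 2 libraries (20.6 M and 20.8 M), and its part in Tfrc was not tested. The difference did not pass (log2 difference 0.12, 95% interval −0.61 to 0.85, limma adjusted p = 0.948). Trf, the plasma iron carrier made by hepatocytes, was the most abundant of the 9 genes, with 5812 and 8210.0 FPKM in KO and 5898 and 6517 FPKM in WT. KO replicate 2 stood above the other libraries and KO replicate 1 below them (log2 difference 0.16, 95% interval −0.43 to 0.75, limma adjusted p = 0.905).

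Export and storage showed one small separation. Slc40a1, the ferroportin gene, had 20.7 and 20.4 FPKM in KO and 24.5 and 22.3 FPKM in WT. Both KO libraries were below both WT libraries, with a KO mean of 87.9% of the WT mean, but the log2 difference of −0.18 did not pass (95% interval −0.43 to 0.08, limma adjusted p = 0.733). Ftl1, the ferritin light chain, had 6151 and 4018 FPKM in KO, against 5013 and 5239 FPKM in WT. The KO libraries lay on either side of the WT libraries (log2 difference −0.04, 95% interval −0.67 to 0.58, limma adjusted p = 0.980).

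Fth1, the ferritin heavy chain, could not be measured. The row under its symbol is NR_073181, a non-coding transcript, with 0.159 FPKM in KO replicate 2 and 1.00e-06 FPKM in each other library. The coding transcript of Fth1 was not analysed here.

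Of the 9 measured iron genes 5 had a positive difference, as did 54.6% of all genes tested, and 4 a negative one, as did 45.4%. The median was 0.04, against 0.02 over all genes tested. None passed the limma threshold of 0.05, which 0.0713% of all genes passed (0.0102% higher and 0.0611% lower in KO). At an unadjusted p under 0.05 there was 1, Hamp2, lower in KO as 3.25% of all genes were, while 4.5% were higher in KO and 7.75% differed in either direction. The groups did not overlap for 2 genes, Hamp2 and Slc40a1, both lower in KO, as were 16.4% of all genes, and for 0 genes higher in KO, as were 22.4% of all genes (38.7% in either direction). The intervals given are those of single genes, not adjusted for the number tested.

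**Figure D3:**
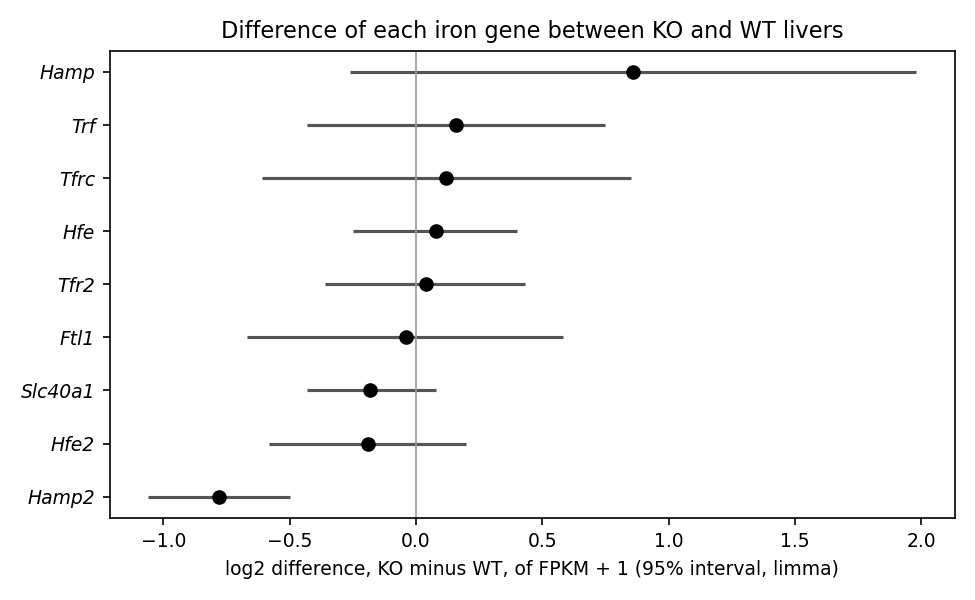
Points give the log2 difference of each measured iron gene, KO minus WT, of FPKM + 1, and lines its 95% interval from limma, not adjusted over genes. The interval of Hamp2 (−1.06 to −0.50) is the only one of the 9 that leaves out 0, and that of Hamp (−0.26 to 1.98) is the widest.

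The genes that act upstream of hepcidin were described next, by lists chosen with earlier results of these data known. None of their members passed the limma threshold. The BMP and SMAD list (17 of 20 genes measured) had 9 positive and 8 negative differences and a median of 0.02. Bmp6, the endothelial ligand that reports liver iron, had 1.29 and 0.969 FPKM in KO and 1.08 and 1.21 FPKM in WT. Id1, a direct SMAD target that often moves with Hamp, had 2.16 and 2.07 FPKM in KO, against 2.32 and 2.72 FPKM in WT. Tmprss6, the protease that cuts hemojuvelin, had 120.1 and 118 FPKM in KO and 106 and 118 FPKM in WT. The values of Bmp6 and Tmprss6 overlapped between the groups, while Id1 was lower in both KO libraries (log2 difference −0.17, limma adjusted p = 0.758). Furin, also on the list, had 48.0 and 46.2 FPKM in KO, against 49.7 and 55.3 FPKM in WT (log2 difference −0.15, limma adjusted p = 0.778). Over the list 1 of 17 genes was higher and 2 of 17 were lower in KO without overlap, against 22.4% and 16.4% of all genes tested. Bmp6 and Tmprss6 fell outside the naming rule and were chosen after their values were seen.

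Gdf15, a stress cytokine that has been linked to low hepcidin in disorders of red cell formation, had the smallest p of the list. It had 6.95 and 7.38 FPKM in KO and 3.96 and 4.15 FPKM in WT. Both KO libraries were higher, and the means were 7.16 ± 0.301 FPKM in KO and 4.06 ± 0.130 FPKM in WT (SD, n = 2 each), a ratio of 1.77. The log2 difference was 0.69 (SE 0.10), with an unadjusted p of 0.000566 and a limma adjusted p of 0.165. Leaving out KO replicate 1 gave 0.73, and leaving out KO replicate 2 gave 0.65. Over the alternatives that kept all 4 libraries the limma adjusted p ran from 0.125 to 0.466.

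The list of inflammatory and hepatocyte control (9 of 11 measured) had a median of 0.13, with 5 positive and 4 negative differences. The median was 0.33 without KO replicate 1, −0.07 without KO replicate 2 and −0.01 with the highest row per gene. Hnf4a, a transcription factor of hepatocytes, had 121 and 143 FPKM in KO and 120.4 and 106 FPKM in WT, and did not overlap (limma adjusted p = 0.751). It made 1 of 9 genes higher in KO without overlap, with 0 lower, against 22.4% and 16.4% of all genes tested. Stat3, also chosen after its values were seen, had 17.8 and 38.1 FPKM in KO and 20.5 and 24.7 FPKM in WT. KO replicate 2 was its high library and KO replicate 1 the low one. Over the list 7 of 9 genes were highest in KO replicate 2, and 4 of 9 were also lowest in KO replicate 1.

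Among the acute phase genes, which the liver induces in inflammation, 13 of 15 were likewise highest in KO replicate 2 and lowest in KO replicate 1. Saa3 and Saa4 were highest in KO replicate 2 only. How many of all genes tested had either order was not counted. Their list median, relative to the WT mean, lay at −0.43 for KO replicate 1 and at 0.89 for KO replicate 2, against −0.13 and 0.13 in the WT libraries. Saa2, a serum amyloid A gene, had 13.8 and 407 FPKM in KO and 22.6 and 23.7 FPKM in WT. Lcn2, which binds bacterial iron carriers, had 7.19 and 172 FPKM in KO and 8.99 and 15.1 FPKM in WT. None of the 15 genes passed with all libraries, and the list median of 0.27 became −0.43 without KO replicate 2. For Saa2 the direction turned with the library left out: the log2 difference was 4.08 without KO replicate 1 (limma adjusted p = 1.74e-07) and −0.71 without KO replicate 2 (limma adjusted p = 0.0354), with adjusted p-values up to 0.999 over the alternatives. Without KO replicate 1 it was 3.77 for Lcn2, 2.25 for Saa3 and 1.83 for Saa4. Without KO replicate 2 it was −0.63, 0.15 and −0.04. Hamp was highest in KO replicate 2 as well, but its lowest library was WT replicate 1 and not KO replicate 1. The part of the acute phase in the Hamp values was not tested.

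**Figure D4:**
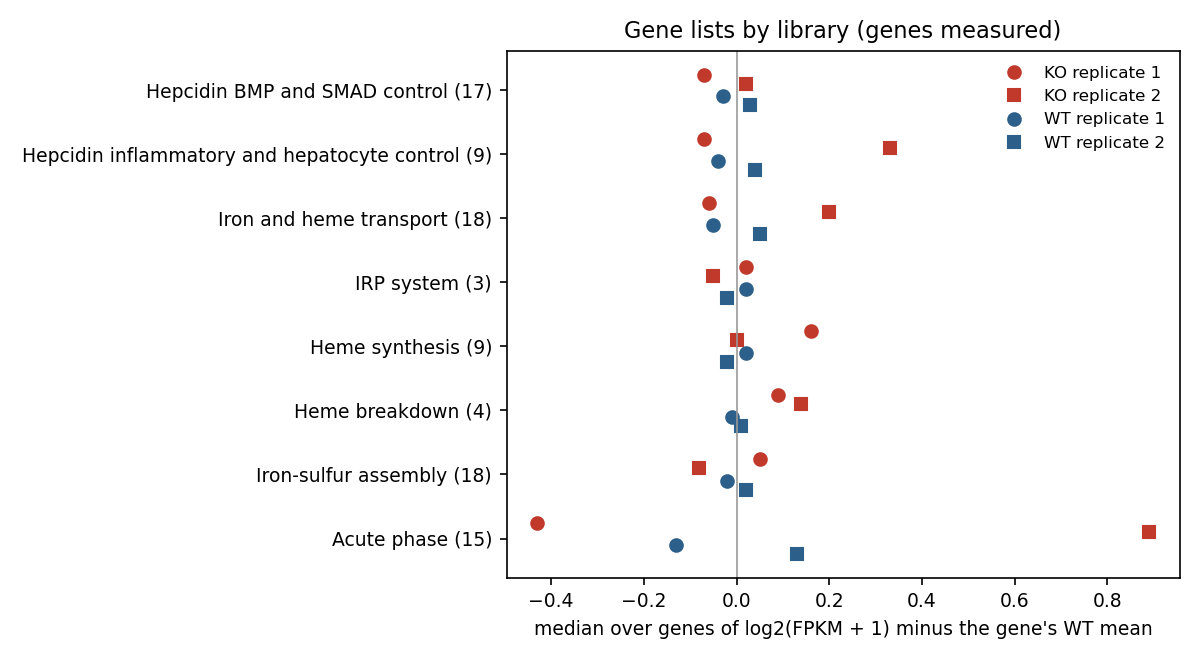
Each point is the median over the measured genes of a list (number in brackets) of log2(FPKM + 1) minus the gene's WT mean, for KO (red, above) and WT (blue) libraries. The acute phase list spreads from −0.43 in KO replicate 1 to 0.89 in KO replicate 2, while the BMP and SMAD list stays between −0.07 and 0.03.

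Genes of iron and heme transport (18 of 22 measured) had 14 positive and 4 negative differences and a median of 0.14, against 0.02 over all genes. Without KO replicate 2 the median was −0.06. Steap4, an inflammation-induced metalloreductase, had 40.9 and 172 FPKM in KO and 39.5 and 44.8 FPKM in WT. Slc39a14, the ZIP14 importer of free iron that interleukin-6 induces, a name also picked with its values in view, had 20.7 and 45.8 FPKM in KO and 22.6 and 25.2 FPKM in WT. Hp and Hpx, which carry hemoglobin and heme in plasma, were named in the same way. Hp had 2453 and 7039 FPKM in KO and 2841 and 3860.2 FPKM in WT, and Hpx had 2537 and 6511 FPKM in KO and 3165 and 3617 FPKM in WT. In all 4 of these genes KO replicate 2 was the highest library and KO replicate 1 lay within or below the WT range. All but Steap4 were picked with their values in view, which favours this likeness, and Hp is also in the acute phase list. Over the transport list 11 of 18 genes were highest in KO replicate 2, and 5 of 18 were also lowest in KO replicate 1. How many of all genes tested had this order was not counted. The log2 difference of Steap4 was 2.0 without KO replicate 1 (limma adjusted p = 5.09e-05) and −0.04 without KO replicate 2 (limma adjusted p = 0.968).

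Other transport genes separated by small amounts. Slc39a8, the ZIP8 metal importer, had 7.65 and 7.90 FPKM in KO and 6.60 and 6.67 FPKM in WT (log2 difference 0.20, limma adjusted p = 0.686). Ncoa4, the receptor that delivers ferritin to lysosomes, had 32.9 and 33.8 FPKM in KO and 40.1 and 35.8 FPKM in WT. Steap3, an endosomal ferrireductase, had 11.1 and 12.2 FPKM in KO and 12.6 and 13.9 FPKM in WT. In these genes the groups did not overlap. Over the list 4 of 18 genes were higher and 2 lower in KO without overlap, against 22.4% and 16.4% of all genes tested. With the highest row per gene in place of the sum, the log2 difference was 0.03 for Slc39a8 and −0.32 for Ncoa4.

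The genes that read cellular iron had small differences that did not pass. Aco1, iron regulatory protein 1, had 68.8 and 59.8 FPKM in KO and 69.8 and 66.1 FPKM in WT. Ireb2, iron regulatory protein 2, had 9.81 and 10.5 FPKM in KO and 10.3 and 11.6 FPKM in WT. Fbxl5, which targets Ireb2 for breakdown when iron is present, had 9.47 and 9.58 FPKM in KO and 9.02 and 8.72 FPKM in WT. The differences were −0.08, −0.10 and 0.09 on the log2 scale, and only Fbxl5 did not overlap. That makes 1 of 3 genes higher in KO without overlap, against 22.4% of all genes tested.

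Heme synthesis consumes iron, and its first enzyme had the largest difference of its list. Alas1, the rate-limiting synthase of the liver, had 124 and 77.2 FPKM in KO, against 50.6 and 40.9 FPKM in WT. Both KO libraries were higher, and the means were 100.4 ± 32.8 FPKM in KO and 45.7 ± 6.79 FPKM in WT (SD, n = 2 each), a ratio of 2.19. The log2 difference of 1.09 (SE 0.24) had an unadjusted p of 0.00375 and did not pass (limma adjusted p = 0.326). Leaving out KO replicate 1 gave 0.75, and leaving out KO replicate 2 gave 1.42. Over the alternatives that kept all 4 libraries its limma adjusted p ran from 0.0630 to 0.577.

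All 9 measured genes of heme synthesis had a positive difference, with a median of 0.10, but that median was −0.00 without KO replicate 1. Fech, which inserts iron into the ring, had 46.9 and 49.4 FPKM in KO and 40.1 and 45.8 FPKM in WT. Of other enzymes of the pathway, Alad had 49.9 and 41.5 FPKM in KO and 42.8 and 41.1 FPKM in WT, and Ppox had 5.52 and 7.01 FPKM in KO and 5.86 and 5.68 FPKM in WT. Besides Alas1 only Fech did not overlap between the groups, which makes 2 of 9 genes higher in KO without overlap, against 22.4% of all genes tested.

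For heme breakdown, Hmox1, the oxygenase that frees the iron, had 6.92 and 10.3 FPKM in KO and 7.55 and 6.57 FPKM in WT. Blvrb, a biliverdin reductase, had 249 and 192 FPKM in KO and 166 and 169.6 FPKM in WT, higher in both KO libraries (log2 difference 0.38, unadjusted p = 0.0494, limma adjusted p = 0.644). The log2 difference of Blvrb was 0.19 without KO replicate 1 (limma adjusted p = 0.469) and 0.57 without KO replicate 2 (limma adjusted p = 0.0490), with adjusted p-values up to 0.999 over all alternatives. Iron-sulfur cluster assembly, which takes place in mitochondria and the cytosol, had a median of −0.01 over 18 measured genes, with 8 positive and 10 negative. Iscu, the scaffold of the cluster, had 115 and 109.9 FPKM in KO and 89.6 and 98.7 FPKM in WT. Hspa9, the chaperone that passes the cluster on, had 221 and 222 FPKM in KO and 297 and 251 FPKM in WT. These genes did not overlap between the groups and went in opposite directions (log2 differences 0.26 and −0.30, limma adjusted p = 0.644 for each). Over the list 4 of 18 genes were higher and 2 of 18 lower in KO without overlap, against 22.4% and 16.4% of all genes tested.

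**Figure D5:**
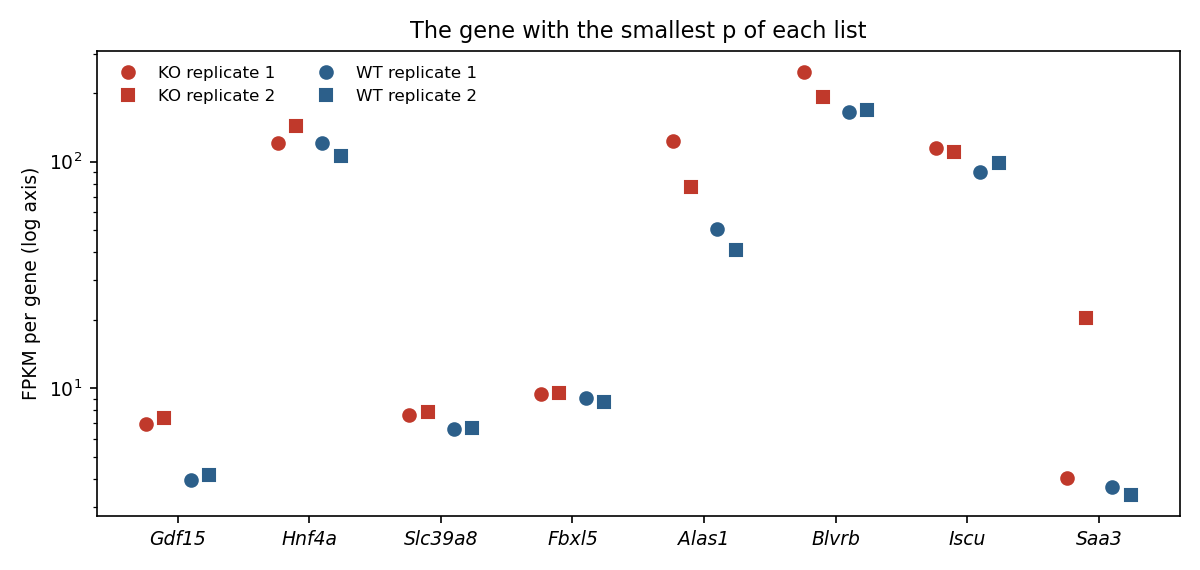
FPKM (log axis) of the gene with the smallest p in each of the 8 lists, in KO (red) and WT (blue) libraries. Each of the 8 genes shows both KO libraries above both WT libraries, a separation that picking by the smallest p favours. Saa3 shows KO replicate 2 (20.5 FPKM) apart from the other libraries.

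Other cells of the liver hold iron genes too, since Kupffer cells express ferroportin and endothelial cells make Bmp6. Kupffer cell markers summed to 68.9 and 121 FPKM in KO and 90.8 and 73.1 FPKM in WT, and 7 of the 8 in the table were highest in KO replicate 2. Sinusoidal endothelial markers summed to 58.3 and 70.6 FPKM in KO and 53.1 and 55.6 FPKM in WT, and 7 of 7 were highest in KO replicate 2. Without overlap, 3 of these 7 and 1 of the 8 Kupffer cell markers were higher in KO, against 22.4% of all genes tested. How many of all genes tested were highest in KO replicate 2 was not counted. Neutrophil markers summed to 6.67 and 24.7 FPKM in KO and 9.28 and 12.2 FPKM in WT, with Camp at 0. None of the 5 in the table separated the groups, against 38.7% of all genes tested. In bulk tissue more cells of a type and more RNA per cell cannot be told apart, and the part of these cells in Slc40a1 and the other iron genes was not tested.

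Erythroid markers, which blood left in the liver would carry, summed to 272 and 545 FPKM in KO and 893 and 296 FPKM in WT. WT replicate 1, the library with the least Hamp, had the most. Of 10 erythroid markers 7 were listed, none of them at 0 in all libraries. None of these separated the groups, against 38.7% of all genes tested. The part of blood in the Hamp values was not tested. Stellate cell markers summed to 58.7 and 59.9 FPKM in KO and 50.5 and 57.4 FPKM in WT. Without overlap, 2 of the 5 were higher in KO, against 22.4% of all genes tested. Lymphocyte markers summed to 0.782 and 1.35 FPKM in KO and 1.18 and 0.908 FPKM in WT. Of these, 2 of 5 were lower in KO without overlap, against 16.4% of all genes tested, but none reached a mean of 1 FPKM.

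Genes whose pattern over the 4 libraries was near to that of Hamp were found by the Euclidean distance of centred log2(FPKM + 1) values. Among the nearest were Mfsd2a (distance 0.349), Ppm1k (0.630), Ppp1r10 (0.676) and Tsc22d3 (0.679). Mfsd2a, a lysophospholipid transporter, had 3.87 and 5.66 FPKM in KO and 1.43 and 3.78 FPKM in WT. Tsc22d3, a glucocorticoid-induced gene, had 65.2 and 82.1 FPKM in KO and 38.7 and 57.1 FPKM in WT. Mfsd2a, Ppp1r10 and Tsc22d3 were higher in both KO libraries, as 22.4% of all genes tested were, while Ppm1k overlapped between the groups like Hamp. Each of these 4 genes had its lowest value in WT replicate 1 and its highest in KO replicate 2, as Hamp did. Picking genes by their nearness to Hamp favours this likeness. With 4 libraries such likeness is a description of these libraries only.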

How the data were processed

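The authors deposited a single table, which holds FPKM for RefSeq transcripts in each library, per the file headers. Bowtie, TopHat and the mm10 build are named in the submitters' processing notes. How FPKM was computed, from which annotation, and whether strand was used is not stated there. Rows were summed per gene number (5009 of 23920 genes had several), and 56 symbols that had turned into dates were restored through RefSeq. Implied depths came from steps in low values, whole for too few of them to allow a count test. Genes with a mean of at least 1 FPKM were tested on log2(FPKM + 1) with limma 3.58.1 in R 4.3.3 (intensity trend, all 4 libraries, Benjamini-Hochberg over 9820 genes, threshold 0.05), after a test on simulated data. Groups and replicate numbers came from sample titles. Lists were described by counts and medians. The members and lists were chosen with earlier results of these data known. Genes named were Srebf1, the 10 iron genes, up to 4 per list by smallest p, and the 5 nearest to Hamp, of which 1 is not reported here. Others are marked. Python 3.11.15, pandas 2.3.3, biopython 1.88 and matplotlib 3.10.9 were used. Gene coordinates and promoters are RefSeq GRCm38.p6, the mm10 assembly.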

Additional observations from a re-analysis of the deposited data

How the results depend on the processing

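The alternatives were a pseudocount of 0.1 or 0.5, removing the filter or raising it to 5 FPKM, scaling by upper quartile or quantiles, limma without its trend, the highest row per gene, a replicate block and each library left out, where a lone library is assumed to vary like the other group. No iron gene passed under any that kept all 4 libraries. In a fit with 1 library left out the spread rests on the group that kept both libraries, so passing there decides nothing. The 1 gene called higher in KO became 0 without a filter, with a minimum of 5 FPKM, with either scaling, without a trend and with the highest row, and the 6 called lower became 10 with a pseudocount of 0.1, 0 without a filter and 3 with a minimum of 5 FPKM. With the replicate block, where same-numbered libraries share only a number (correlation of deviations 0.167 over 9820 genes), 4 genes were called higher and 15 lower, and no iron gene. With 1 library left out the counts ran from 0 to 195 higher and from 1 to 162 lower. The causes were not tested.

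With 1 library left out the log2 difference ran from −0.07 to 0.22 for Hfe, −0.40 to 0.01 for Hfe2, −0.16 to 0.23 for Tfr2, −0.23 to 0.47 for Tfrc, −0.09 to 0.41 for Trf and −0.35 to 0.26 for Ftl1, so the direction of each rests on single libraries, while Hamp (0.15 to 1.58), Hamp2 (−0.86 to −0.70) and Slc40a1 (−0.24 to −0.11) kept theirs. Among other genes it ran from −0.31 to 0.02 for Smad1, −0.04 to 0.60 for Socs3, −0.04 to 2.0 for Steap4, −0.18 to 0.02 for Aco1, −0.01 to 0.25 for Alad, −0.05 to 0.24 for Ppox, −0.02 to 0.49 for Hmox1, −0.04 to 1.83 for Saa4, −0.63 to 3.77 for Lcn2 and −0.71 to 4.08 for Saa2. With the highest row Jak2 was −0.32, Slc39a8 0.03 and Ncoa4 −0.32. Depth limits Hamp2, whose level rests on few fragments.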
